A study of Mus musculus with 2 samples.

Results

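The Ifitm genes encode small interferon-induced transmembrane proteins, and 4 of them, Ifitm1, Ifitm2, Ifitm3 and Ifitm6, are described here in cells taken from mouse tumours. The 4 genes were picked by symbol from the 32285 genes counted, with earlier results of these data known, so their levels and ratios are given as descriptions and none of them carries a test. MC38, a mouse colon carcinoma line, was implanted in C57BL/6 female mice that were given LC427, a compound known here by its code name, or vehicle. Tumours were taken on day 14, digested and depleted of dead cells. CD45-positive leucocytes were then collected on beads and their RNA was captured in droplets with the 10x 5′ chemistry, which counts unique molecules (UMIs) from the 5′ end of each transcript. The LC427 group is 1 library and the vehicle group is 1 library, and the labels do not say how many mice fed each one. With 1 library per group a difference between groups cannot be told apart from a difference between these libraries.

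IFITM proteins sit in the plasma membrane and in endosomal and lysosomal membranes, where they stiffen the lipid bilayer and hinder the fusion of enveloped viruses with the cell. Type I and type II interferons raise their transcription through receptors at the cell surface and factors that bind their promoters. IFITM3 acts mostly in late endosomes, which it reaches through a sorting motif near its amino terminus, and its activity needs palmitoylation. IFITM1 lies largely at the cell surface, where it is found with the tetraspanin CD81. In mice the genes also mark cell states, since Ifitm3 is abundant in many myeloid cells and Ifitm6 is known from monocytes and neutrophils.

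The LC427 library gave 6008 cells with a median of 2353 UMIs and the vehicle library 5025 cells with a median of 3494 UMIs. The libraries shared 47 cell barcodes. Levels are CPM, the usual depth-scaled unit, taken over the summed UMIs of all cells of a class in a library. Intervals cover 95% of counting error only (exact Poisson for a level, conditional binomial for a ratio). They are too narrow as errors of a condition, because UMIs of 1 cell are not independent and no replicate exists. Ratios are LC427 over vehicle, and 1.5-fold was the size past which a gene is counted as higher or lower. Among genes with at least 20 UMIs in all called cells, 7.68% were at least 1.5-fold lower and 8.57% at least 1.5-fold higher in LC427, and the median ratio was 1.07. LC427 cells were shallower in most classes, so shares of cells with a UMI are given after every cell was thinned to 1000 UMIs.

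All 4 genes lie on mouse chromosome 7 (GRCm38, GENCODE annotation) within 63088 bases that hold 1 further gene, Gm7514. Ifitm2 (ENSMUSG00000060591) is at chr7:140954837-140955987 on the minus strand with 2 exons, and Ifitm1 (ENSMUSG00000025491) at chr7:140967221-140969825 on the plus strand with 3 exons. Ifitm3 (ENSMUSG00000025492) is at chr7:141009586-141010770 and Ifitm6 (ENSMUSG00000059108) at chr7:141015699-141017924, both on the minus strand, with 2 and 3 exons in their longest transcripts. The family has further members, of which Ifitm5, Ifitm7 and Ifitm10 were at 1.32, 0 and 1.61 CPM over all LC427 cells and at 1.18, 0.0393 and 2.99 CPM over all vehicle cells. Those 3 were near 0 and are not described further.

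The start regions of the members are shown because the family is named for its response to interferon. The 4 genes differ in the interferon elements these letters hold. The RefSeq windows (GRCm38.p6, 250 bases before to 50 after each start) were searched on both strands for GAAA, any 2 bases and GAAA again, the core of the interferon-stimulated response element (ISRE), and for TTCNNNGAA, the gamma-activated site. Capitals mark the matches, all of which lay on the gene's own strand, and overlapping matches were counted. Positions are counted from the start, with the last base before it at -1. The stretch upstream of Ifitm2 (chr7:140955988-140956211, minus strand, before the gene) holds 1 ISRE match that begins 46 bases before the start. Ifitm3 holds 3 matches, some of which overlap (2 of the ISRE core and 1 of TTCNNNGAA), from 3 to 29 bases after its start in the first exon (chr7:141010716-141010742, minus strand). Ifitm6 holds 1 TTCNNNGAA match from 10 bases before its start (chr7:141016894-141016902, minus strand), shown with 8 bases to each side. The window of Ifitm1 holds no match to either motif, and its upstream stretch (chr7:140967826-140968027, plus strand, within an intron of the longest annotated transcript) is printed in lower case throughout.
Ifitm1: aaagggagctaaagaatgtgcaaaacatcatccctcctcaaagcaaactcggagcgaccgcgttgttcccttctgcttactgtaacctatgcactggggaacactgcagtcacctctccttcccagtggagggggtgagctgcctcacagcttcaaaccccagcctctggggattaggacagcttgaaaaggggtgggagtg
Ifitm2: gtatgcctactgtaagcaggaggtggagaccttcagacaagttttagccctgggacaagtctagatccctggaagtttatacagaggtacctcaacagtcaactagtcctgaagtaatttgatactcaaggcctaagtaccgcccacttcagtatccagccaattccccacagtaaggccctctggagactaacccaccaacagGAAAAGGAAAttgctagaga
Ifitm3: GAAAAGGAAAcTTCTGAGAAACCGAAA
Ifitm6: atatgaacTTCCTTGAAacaagagc
Across all 32851 RefSeq windows of this length, the ISRE core occurred in 3.44% and TTCNNNGAA in 8.30%. Of the type I interferon response genes listed for comparison, 9 of 17 with a window held the ISRE core, and of the interferon gamma response genes 11 of 18 did. A match describes letters and is not evidence of binding, and the absence of one in this window says nothing of elements elsewhere.

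The members resemble other sequences to different extents, which bears on how their reads could be assigned. Of the 50-base words of the annotated Ifitm2 transcripts, 48.5% also occur in transcripts of another gene, mostly the overlapping Gm45717. For Ifitm3 that share was 10.0%, for Ifitm1 5.02% and for Ifitm6 0%. Reads from shared stretches cannot be given to 1 gene with certainty, so the absolute level of Ifitm2 is the least certain of the 4.

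Over all called cells the 4 genes were at lower CPM in LC427. Ifitm2 was furthest apart, at 258 CPM in LC427 and 484 CPM in vehicle, a ratio of 0.535 (interval 0.518 to 0.552). Ifitm1 stood at 355 CPM in LC427 and 451 CPM in vehicle (ratio 0.786) and Ifitm3 at 665 CPM in LC427 and 791 CPM in vehicle (ratio 0.841). Ifitm6 was sparse at 6.48 CPM in LC427 and 8.02 CPM in vehicle, with a ratio of 0.807 (interval 0.645 to 1.01). Only Ifitm2, 1 of the 4, was past 1.5-fold over all cells. RNA outside cells, read from droplets with 10 to 100 UMIs, held Ifitm2 at 155 CPM in the LC427 library and 237 CPM in the vehicle library, a ratio of 0.654 in the same direction. In the same droplets Ifitm1 was at 139 CPM in the LC427 library and 133 CPM in the vehicle library. Ifitm3 was at 393 CPM in the LC427 library and 395 CPM in the vehicle library, so both were close to equal between libraries. Ifitm6 was at 5.71 CPM in the LC427 droplets and 4.06 CPM in the vehicle droplets, from 17 and 15 UMIs. Its ratio there was 1.40 (interval 0.660 to 3.02). Short transcripts were lower in LC427 more often than long ones: in monocyte/macrophage-like cells, 16.2% of 696 genes under 1000 bases were at least 1.5-fold lower, against 3.33% of genes of 4000 bases or more. The members are 655 to 882 bases long, and the part of transcript length in their ratios was not tested.

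**Figure D1:**
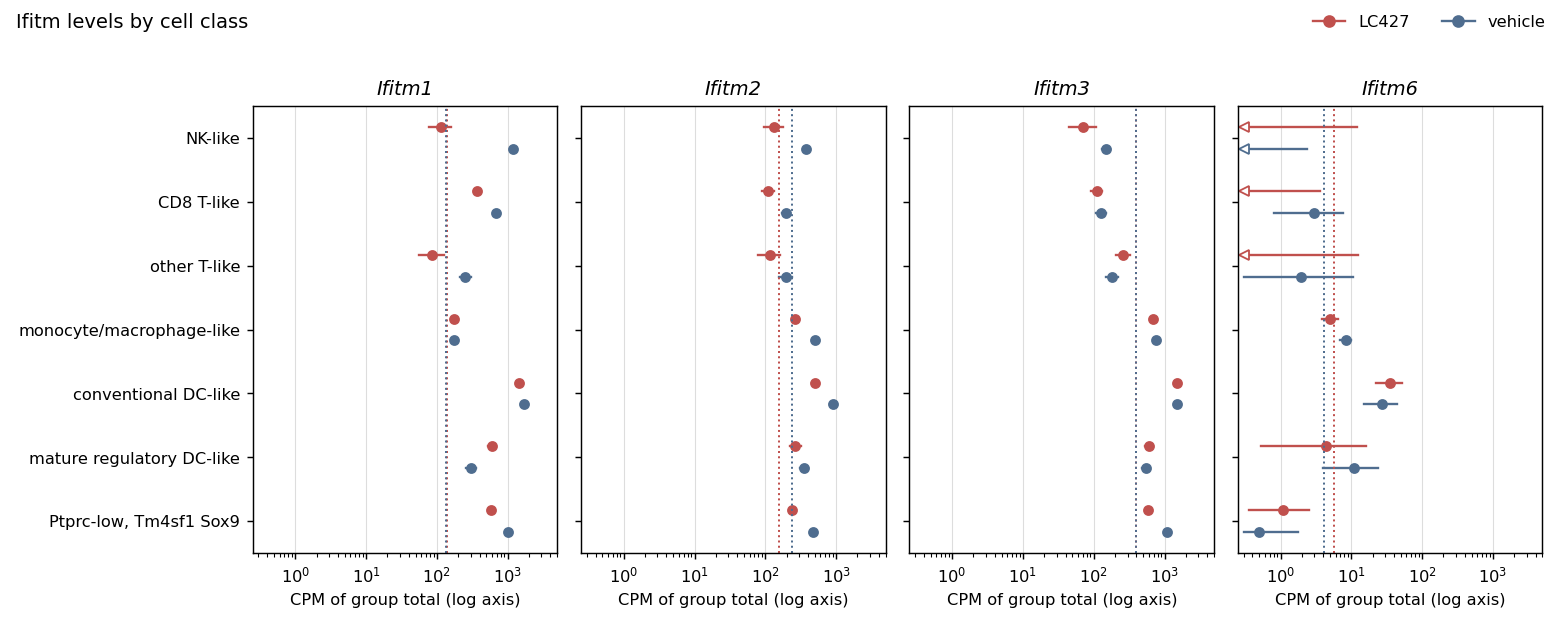
Levels of Ifitm1, Ifitm2, Ifitm3 and Ifitm6 in each cell class, 1 panel a gene, in CPM of the class total on a log axis, with LC427 above vehicle and bars for exact Poisson 95% intervals. Open left-pointing triangles mark 0 UMIs and dotted lines the level in empty droplets of each library. Of the classes drawn, Ifitm1 separates the libraries most in NK-like cells, Ifitm2 lies lower in LC427 in every class drawn, and Ifitm6 has no UMI in NK-like cells of either library.

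Ifitm1 was lower in LC427 in NK-like cells, a class named from NK receptor genes such as Ncr1 and Klrb1c and made of 151 LC427 and 363 vehicle cells, with median totals of 1629 and 2543 UMIs. Ifitm1 was at 113 CPM (interval 78.4 to 157) in LC427 and 1204 CPM (interval 1150.5 to 1259.8) in vehicle, from 35 and 1884 UMIs, a ratio of 0.0935 (interval 0.0649 to 0.131). In the same cells 16.2% of measured genes were at least 1.5-fold lower in LC427 and 22.6% at least 1.5-fold higher. Ifitm2 stood at 132 CPM in LC427 and 379.7 CPM in vehicle, a ratio of 0.347 (interval 0.247 to 0.477), and Ifitm3 at 70.8 CPM in LC427 and 149.6 CPM in vehicle, a ratio of 0.473 (interval 0.291 to 0.734). Ifitm6 had 0 UMIs in the NK-like cells of both libraries, so the 3 members with signal were all past 1.5-fold lower in the summed counts. The Ifitm3 value did not hold its size: with every cell weighted equally its ratio was 0.738, after thinning 0.773, and with a minimum of 2000 UMIs, at most 5% mitochondrial UMIs, coarser clusters or a gate on marker UMIs it lay at 0.681 to 0.753, none of them past 1.5-fold. The LC427 levels of the 3 genes in NK-like cells lie under those of empty LC427 droplets, given above.

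A few vehicle cells carried most of the Ifitm1 signal in NK-like cells. Of the 1884 vehicle UMIs, 74.5% came from 10 cells, the richest of which held 280. In LC427 no cell held more than 5 and 18 of 151 cells had a UMI, against 65 of 363 in vehicle. Cells with 10 or more Ifitm1 UMIs numbered 0 in LC427 and 24 in vehicle. These 24 vehicle cells were large, with a median of 16611 UMIs and up to 62441. Of them, 21 also had a UMI of Gzmd, Gzme, Gzmf or Gzmg, granzymes of strongly activated killer cells, 15 had a UMI of Ncr1 or Klrb1c, and 5 had a UMI of a Cd3 gene of T cells. The summed level of the 7 NK markers was 321 CPM in them, 722 CPM in vehicle cells with 1 to 9 Ifitm1 UMIs and 1722 CPM in those with 0. Cells grouped by Ifitm1 in this way were chosen on the gene described, and the counts are a description of where its UMIs sat.

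Giving each cell equal weight brought the NK-like ratio of Ifitm1 to 0.307, and thinning each cell to 1000 UMIs to 0.309. Both were past 1.5-fold lower, at over 3 times the ratio from summed UMIs. After thinning, 8.61% of LC427 and 13.5% of vehicle NK-like cells had an Ifitm1 UMI, and before it 11.9% and 17.9%. In the macrophage cluster led by Cbr2 and Ccl8, which had the lowest Ifitm1 levels, the thinned shares were 3.14% in LC427 and 1.55% in vehicle, with median totals of 2887 and 3707 UMIs. Cells with no UMI of the 4 granzymes, a split chosen after seeing the data, were at 71.5 CPM in LC427 (125 cells) and 272 CPM in vehicle (273 cells), a ratio of 0.263 (interval 0.148 to 0.438). Those with such a UMI were at 219 CPM in LC427 (26 cells) and 2050.0 CPM in vehicle (90 cells), a ratio of 0.107. Of the 202 vehicle UMIs in cells with no such granzyme UMI, 121 came from 1 cell of 18223 UMIs. Without that cell the ratio was 0.640, with an interval that spans 1, and without the 3 richest it turned to 1.14 (interval 0.602 to 2.06). The cells left out were picked for their Ifitm1 and from vehicle alone, which can only raise the ratio. The LC427 cells with no such granzyme UMI were all kept, and 5 of their 16 Ifitm1 UMIs came from 1 cell. These values thus show how much of the vehicle level sat in 3 cells and do not settle a direction. Summed over the whole class, the 7 NK markers were at 1467 CPM in LC427 and 1152 CPM in vehicle with none at 0. The 13 monocyte or macrophage markers summed to 824 and 816 CPM, and the part of other cells' RNA in the Ifitm1 difference was not tested.

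**Figure D2:**
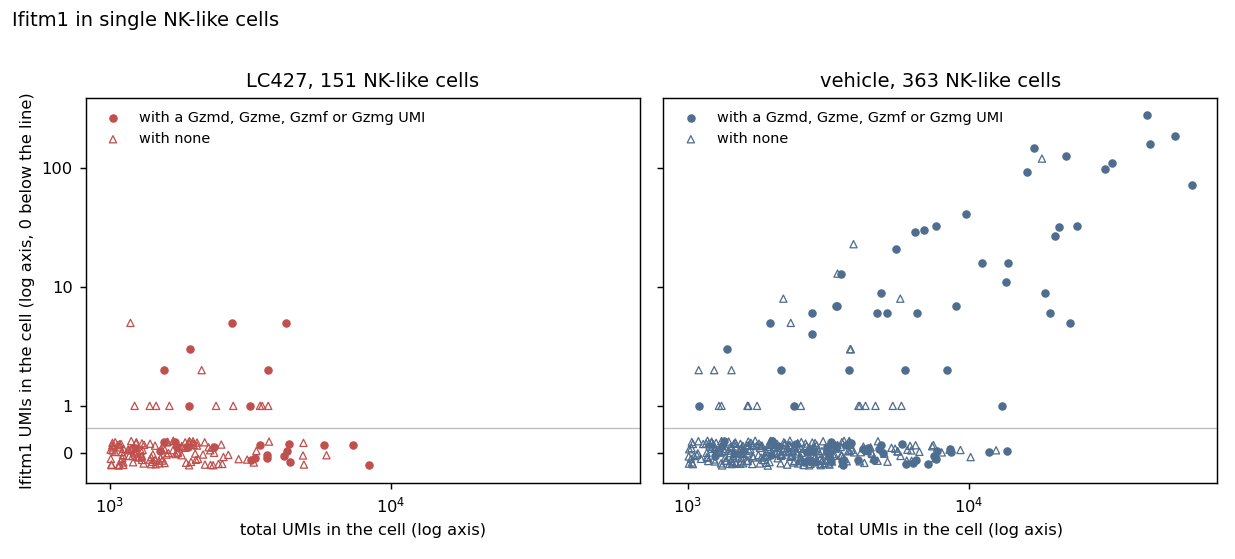
Each point is 1 NK-like cell, LC427 on the left and vehicle on the right, placed by its total UMIs and its Ifitm1 UMIs on log axes, with cells at 0 below a line and spread by jitter. Filled points have a UMI of Gzmd, Gzme, Gzmf or Gzmg and open triangles have none. The 24 cells with 10 or more Ifitm1 UMIs are all vehicle cells, most of them filled and to the right, and the highest LC427 cell holds 5.

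In CD8 T-like cells (424 LC427 and 301 vehicle cells, with median totals of 1765 and 3443 UMIs) Ifitm1 was lower in LC427. It stood at 365 CPM (interval 329 to 404) in LC427 and 688 CPM (interval 644 to 734) in vehicle, a ratio of 0.531 (interval 0.469 to 0.599). Of measured genes in these cells, 10.3% were at least 1.5-fold lower and 13.7% at least 1.5-fold higher in LC427. After thinning, 18.6% of LC427 and 30.2% of vehicle cells had an Ifitm1 UMI (29.0% and 41.2% before thinning). Ifitm2 was at 109.6 CPM in LC427 and 194 CPM in vehicle, a ratio of 0.564 (interval 0.448 to 0.706). Both genes fell short of 1.5-fold when cells were gated by UMIs of marker genes in place of clusters, with ratios of 0.725 and 0.677. Ifitm3 had no settled direction in CD8 T-like cells: it was at 111 CPM in LC427 and 127 CPM in vehicle, a ratio of 0.868 (interval 0.678 to 1.11), but 0.504 after thinning, 0.595 with likely doublets kept, 1.05 with coarser clusters and 1.64 under the marker gate. Ifitm6 had 0 UMIs in LC427 and 4 in vehicle. The Ifitm2 and Ifitm3 levels of CD8 T-like cells lay under those of empty droplets in both libraries.

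The other T-like cells (136 LC427 and 248 vehicle cells, with median totals of 1586 and 1702 UMIs), in which CD4 and regulatory T cell markers were more abundant than CD8 markers, had less Ifitm1 than CD8 T-like cells in both libraries. Ifitm1 was at 85.0 CPM (interval 55.0 to 126) in LC427 and 253 CPM (interval 212 to 300.0) in vehicle, a ratio of 0.336 (interval 0.210 to 0.518), beside 12.3% of measured genes at least 1.5-fold lower and 18.7% at least 1.5-fold higher in LC427. As in NK-like cells, 78.0% of the vehicle UMIs came from 10 cells, and the marker gate gave 0.826, which is not past 1.5-fold. Finer clusters gave 0.540 and a lower minimum of UMIs per cell 0.564. After thinning, 5.88% of LC427 and 6.85% of vehicle cells had an Ifitm1 UMI (9.56% and 10.9% before thinning), so the share of cells with the transcript was close in the libraries. Ifitm2 was at 116 CPM in LC427 and 194 CPM in vehicle, a ratio of 0.597 (interval 0.393 to 0.889) that moved to 0.398 with likely doublets kept. Ifitm3 was at 262 CPM in LC427 and 182 CPM in vehicle, a ratio of 1.44 (interval 1.05 to 1.96), which turned to 0.947 with likely doublets kept and to 0.667 with finer clusters. The LC427 levels of Ifitm1, Ifitm2 and Ifitm3 and the vehicle levels of Ifitm2 and Ifitm3 lay under those of empty droplets of the same library. The class could be named under 10 alternatives for the processing and could not be named under 4 others.

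Conventional dendritic cell-like (DC-like) cells, 211 LC427 and 99 vehicle cells, with median totals of 2381 and 5019 UMIs, had the highest Ifitm1 level of all classes in both libraries. Ifitm1 was at 1453 CPM (interval 1364 to 1546) in LC427 and 1701 CPM (interval 1595 to 1813) in vehicle, a ratio of 0.854 (interval 0.781 to 0.934) that was not past 1.5-fold. Its ratio was 1.11 when each library was clustered on its own. After thinning, 53.1% of LC427 and 48.5% of vehicle cells had an Ifitm1 UMI (68.2% and 63.6% before thinning). The class held a cluster led by Ccl17 and Plet1, at 1835 CPM in LC427 and 2264 CPM in vehicle (11.9% of genes lower), and a cluster led by Plet1 and Sept3 that carried the cross-presenting DC gene Xcr1, at 644 CPM in LC427 and 1074 CPM in vehicle (43 and 37 cells, 13.8% of genes lower). Ifitm2 was at 505 CPM in LC427 and 904 CPM in vehicle, a ratio of 0.559 (interval 0.486 to 0.642), where 10.2% of measured genes were at least 1.5-fold lower and 16.4% at least 1.5-fold higher. Ifitm3 was level at 1494 CPM in LC427 and 1491 CPM in vehicle, a ratio of 1.00, except that the marker gate gave 0.549. Ifitm6 was at 34.8 CPM in LC427 and 26.7 CPM in vehicle, a ratio of 1.31 (interval 0.657 to 2.68) whose interval spans both directions. Its ratio was 0.801 with coarser clusters, 0.854 with separate clustering, 0.469 under the marker gate and 1.56 after thinning.

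Mature regulatory DC-like cells, named from genes of migrating mature DCs such as Ccr7 and comprising 159 LC427 and 130 vehicle cells, with median totals of 2363 and 3246 UMIs, were the class in which Ifitm1 was past 1.5-fold higher in LC427. Ifitm1 was at 591 CPM (interval 522 to 666) in LC427 and 305 CPM (interval 261 to 355) in vehicle, from 269 and 168 UMIs, a ratio of 1.93 (interval 1.59 to 2.36). The share of cells with an Ifitm1 UMI after thinning was 26.4% in LC427 and 10.8% in vehicle (39.0% and 26.2% before thinning), and the thinned ratio was 2.91. Among measured genes of this class 10.4% were at least 1.5-fold lower and 18% at least 1.5-fold higher. The 10 richest cells held a large part of the signal in both libraries, 54.6% in LC427 and 75.0% in vehicle. Ifitm2 was at 266 CPM in LC427 and 353 CPM in vehicle (ratio 0.754) and Ifitm3 at 595 CPM in LC427 and 539.9 CPM in vehicle, neither past 1.5-fold. Some markers of other cells were also higher in LC427 here: the 8 conventional DC markers summed to 2265 CPM in LC427 and 1443 CPM in vehicle, the 6 T cell markers to 387 and 187 CPM, and the 13 monocyte or macrophage markers to 779.8 and 464 CPM. Other lists were lower in LC427, the 7 neutrophil markers at 22.0 CPM in LC427 and 131 CPM in vehicle, 5 of the 5 B cell markers at 0 UMIs in LC427 and 1 in vehicle, the 6 mast cell or basophil markers at 2.20 and 34.5 CPM, and the 7 NK markers at 41.7 and 47.3 CPM. The 6 markers of the class itself summed to 7738 CPM in LC427 and 8825 CPM in vehicle. The part of these lists in the Ifitm1 difference was not tested.

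A small cluster led by Igkc, Ctsk and Siglech (70 LC427 and 55 vehicle cells) carried plasmacytoid DC markers and had Ifitm1 at 44.9 CPM in LC427 and 472 CPM in vehicle, from 10 and 95 UMIs. The ratio was 0.0951 (interval 0.0442 to 0.183), its interval overlapping that of NK-like cells, but 10 vehicle cells held 96.8% of the vehicle UMIs. After thinning, 0 of 70 LC427 cells, which allows a share of up to 4.29%, and 11 of 55 vehicle cells had an Ifitm1 UMI (10.0% and 23.6% before thinning). In these cells mast cell or basophil markers summed to 35.9 CPM in LC427 and 1188 CPM in vehicle, and B cell markers to 31.4 and 527 CPM, and their part in the difference was not tested. Ifitm3 there was at 458 CPM in LC427 and 467 CPM in vehicle. Ifitm2 had 34 UMIs in LC427 and 79 in vehicle, of which 10 cells held 82.4% and 73.4%. After thinning, 5.71% of LC427 and 16.4% of vehicle cells had an Ifitm2 UMI (22.9% and 41.8% before thinning). Of measured genes in the cluster, 17.6% were at least 1.5-fold lower and 17.2% at least 1.5-fold higher in LC427.

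Monocyte/macrophage-like cells were the largest class, 4054 LC427 and 3437 vehicle cells, with median totals of 2282 and 3624 UMIs, and fell into 11 clusters named by their leading genes. Ifitm1 was level in the class at 177 CPM in LC427 and 173 CPM in vehicle, a ratio of 1.02 (interval 0.967 to 1.09). Ifitm2 was at 261 CPM (interval 252 to 270.2) in LC427 and 506 CPM (interval 495 to 517) in vehicle, a ratio of 0.515 (interval 0.494 to 0.537). Of measured genes in the class, 6.19% were at least 1.5-fold lower and 10.9% at least 1.5-fold higher in LC427. Ifitm3 was at 676 CPM in LC427 and 760.3 CPM in vehicle, a ratio of 0.890 (interval 0.865 to 0.916). Ifitm6 was at 5.02 CPM in LC427 and 8.41 CPM in vehicle, a ratio of 0.597 (interval 0.431 to 0.819). Empty droplets held it at 5.71 CPM in LC427, above the class level, and at 4.06 CPM in vehicle. Ifitm2 and Ifitm6, 2 of the 4, were thus past 1.5-fold lower, but Ifitm6 was not with a lower minimum of UMIs per cell, at 0.723. After thinning, an Ifitm2 UMI was present in 19.7% of LC427 and 35.6% of vehicle cells (41.3% and 68.7% before thinning). The thinned shares for Ifitm3 were 39.8% in LC427 and 41.8% in vehicle, and those for Ifitm1 11.3% in LC427 and 10.0% in vehicle.

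The even Ifitm1 value of the class was made of clusters that differed in both directions. Across the 11 clusters its ratio ranged over 0.492 to 2.45 with a median of 0.838, 4 clusters being past 1.5-fold lower and 2 past 1.5-fold higher. Ifitm1 was highest in cells led by Ly6i and Nos2, genes of inflammatory monocyte-derived cells, at 322 CPM in LC427 and 517 CPM in vehicle, a ratio of 0.624 (interval 0.563 to 0.691) beside 6.95% of that cluster's genes at least 1.5-fold lower. It was also lower in LC427 in cells led by Cxcl3 and Mmp12, at 123 CPM in LC427 and 235 CPM in vehicle (ratio 0.523, 6.86% of genes lower), and in cells led by Plac8, at 205 CPM in LC427 and 318 CPM in vehicle (ratio 0.645, 13.8% of genes lower). The 2 clusters in which Ifitm1 was past 1.5-fold higher were led by Ccl8 and Dnase1l3, at 119.7 CPM in LC427 and 78.7 CPM in vehicle (ratio 1.52, 12.5% of genes higher), and by Neat1 and Mrc1, where 13 and 5 UMIs gave a ratio of 2.45 (interval 0.818 to 8.76), beside 21.1% of genes higher. Cells led by Cbr2 and Ccl8, which carry genes of resident macrophages, had little, at 21.7 CPM in LC427 and 25.9 CPM in vehicle. Cluster make-up differed between the libraries: the Ly6i Nos2 cluster made up 24.3% of the class in LC427 and 10.6% in vehicle, and the Cbr2 Ccl8 cluster 6.29% in LC427 and 18.8% in vehicle. The Cxcl3 Mmp12 cluster made up 10.6% of the class in LC427 and 24.2% in vehicle, and held 9.17% of its Ifitm1 UMIs in LC427 and 38.5% in vehicle. The part of cluster make-up in the class value was not tested.

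Ifitm2 was lower in LC427 in 11 of 11 monocyte/macrophage-like clusters, 10 of them past 1.5-fold, with ratios of 0.373 to 0.706. Its highest level was in cells led by Plac8, a gene of classical monocytes, at 403 CPM in LC427 and 1078 CPM in vehicle (ratio 0.373). The lowest ratios after that were in cells led by Spint1 and Ccr2, at 245 CPM in LC427 and 591 CPM in vehicle (ratio 0.415, 8.42% of genes lower), and in cells led by the heat shock genes Hspa1b and Hspa1a, at 141 CPM in LC427 and 330.4 CPM in vehicle (ratio 0.425, 12.3% of genes lower). Resident-type cells led by Cbr2 and Ccl8 had Ifitm2 at 262 CPM in LC427 and 471 CPM in vehicle (ratio 0.557, 8.55% of genes lower), and cells led by Ccl8 and Dnase1l3 at 279 CPM in LC427 and 589 CPM in vehicle (ratio 0.474, 9.77% of genes lower). In cells led by Pf4 and Lgmn it was at 176 CPM in LC427 and 285 CPM in vehicle (ratio 0.617), while 4.62% of that cluster's genes were lower. Cycling cells and cells led by Rsad2 and Ifit2 gave 0.500 and 0.556, beside 8.02% and 11.2% of genes lower. The lower level of Ifitm2 was thus a feature of 10 of the 11 clusters past 1.5-fold, the Neat1 Mrc1 cells, at 0.706 (interval 0.305 to 1.59) from 12 and 16 UMIs, being the exception. Under the 16 alternatives for the processing the class ratio of Ifitm2 stayed within 0.467 to 0.540. Ifitm3 was lower in 9 of 11 clusters, 3 of them past 1.5-fold, with ratios of 0.500 to 1.43. Among the clusters the highest Ifitm3 levels were in Plac8 cells, at 1568 CPM in LC427 and 3134 CPM in vehicle (ratio 0.500), and in cells led by the type I interferon response genes Rsad2 and Ifit2, at 1700.0 CPM in LC427 and 1911 CPM in vehicle (ratio 0.890). The order of these clusters differs between libraries, with the Plac8 cells far above the Rsad2 Ifit2 cells in vehicle and slightly under them in LC427. Cycling macrophage-like cells had Ifitm3 at 549 CPM in LC427 and 522 CPM in vehicle, a ratio of 1.05.

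Ifitm6 was a gene of the Plac8 cells, and it was among their leading genes, so its level there is given only as a description. It stood at 77.5 CPM (interval 52.7 to 110.1) in LC427 and 232 CPM (interval 186 to 285) in vehicle (236 LC427 and 155 vehicle cells), a ratio of 0.334 (interval 0.215 to 0.509). The cluster held 52.5% of the Ifitm6 UMIs of all monocyte/macrophage-like cells in LC427 and 69.0% in vehicle. After thinning, 16 of 236 LC427 and 31 of 155 vehicle Plac8 cells had an Ifitm6 UMI, with median totals of 1419 and 2121 UMIs. T cells were the class taken to lack the gene, and serve as the background for that share. Of CD8 T-like cells, 0 of 424 in LC427 and 1 of 301 in vehicle had an Ifitm6 UMI after thinning. Among other T-like cells the counts were 0 of 136 in LC427 and 1 of 248 in vehicle. Conventional DC-like cells had more, 9 of 211 in LC427 and 3 of 99 in vehicle. Without the Plac8 cluster the class ratio of Ifitm6 was 0.923 (interval 0.548 to 1.53). Over the 5 clusters with UMIs in both libraries and more than 3 in one, the Plac8 cells included, Ifitm6 was below 1 in 5 and past 1.5-fold lower in 4, with the interval below 1 in 1. Other classical monocyte genes were read over the whole class only, not within the Plac8 cells. Of 12 listed, 6 were past 1.5-fold higher in LC427 and 1 lower, beside 10.9% and 6.19% of all measured genes. Their summed level was close in the libraries, at 4753 CPM in LC427 and 4883 CPM in vehicle. Plac8 was at 450.3 CPM in LC427 and 182 CPM in vehicle. Chil3, a chitinase-like gene, was at 90.0 CPM in LC427 and 201 CPM in vehicle. A further cluster led by Retnla and Ear2 (67 and 44 cells), whose 10 leading genes held 1 conventional DC marker and 0 macrophage markers and which was left without a class, had Ifitm6 at 27.5 CPM in LC427 and 89.0 CPM in vehicle from 6 and 17 UMIs. Ifitm3 in that cluster was at 1106 CPM in LC427 and 1759 CPM in vehicle (ratio 0.629), where 13.1% of genes were lower and 13.7% higher, and Ifitm1 had 8 LC427 and 2 vehicle UMIs.

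**Figure D3:**
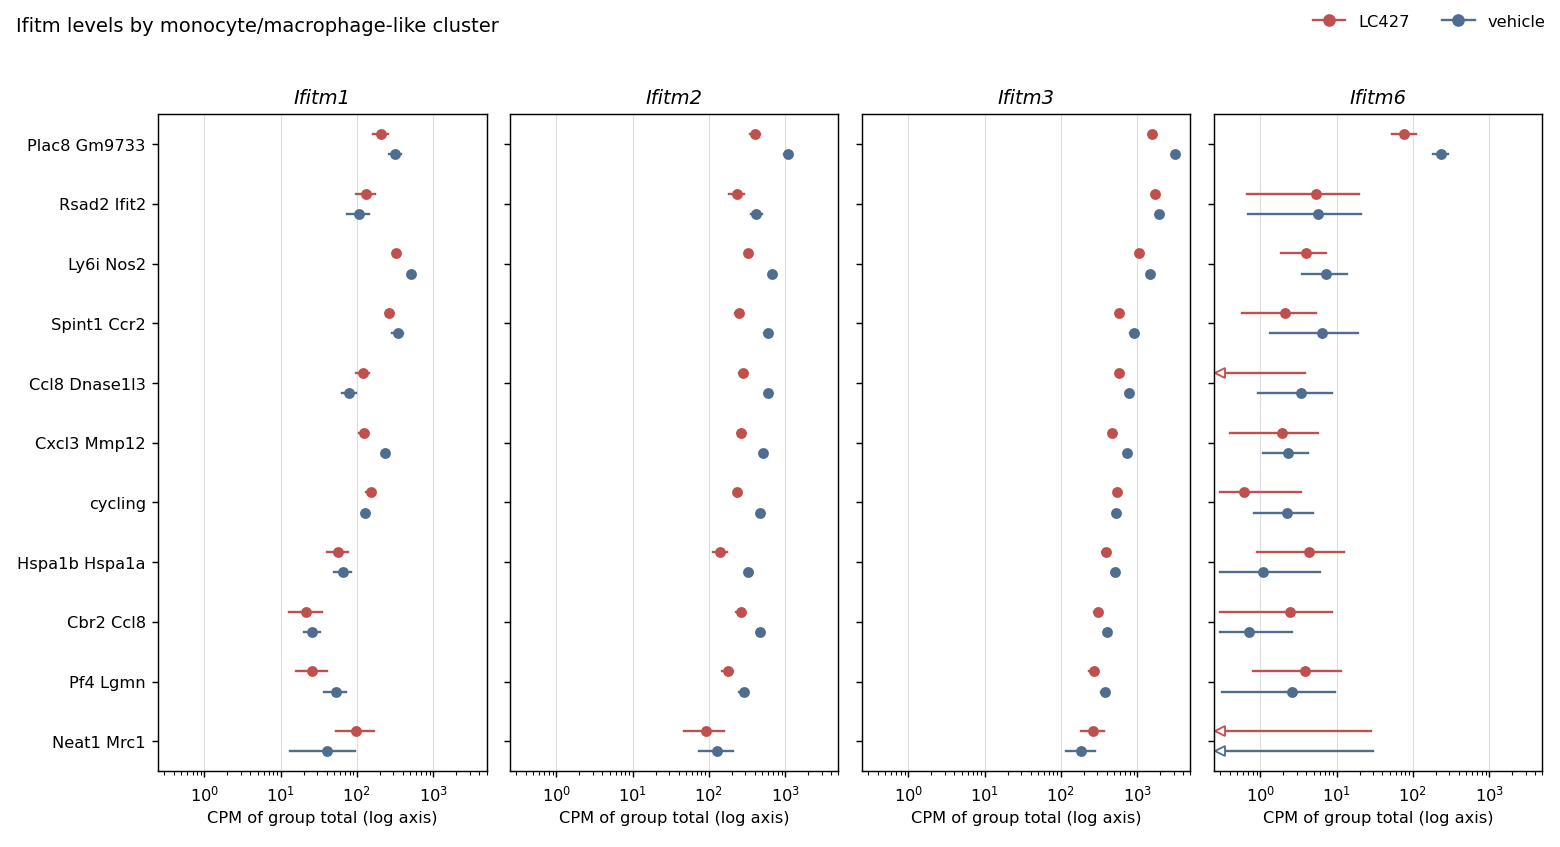
Levels of the 4 genes in the 11 monocyte/macrophage-like clusters, in CPM of the cluster total on a log axis, ordered by the vehicle level of Ifitm3, with LC427 above vehicle, bars for exact Poisson 95% intervals and open left-pointing triangles for 0 UMIs. Ifitm2 is lower in LC427 in all 11 clusters, Ifitm1 lies on either side, and Ifitm6 is highest in the Plac8 Gm9733 cluster.

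Cells with little Ptprc, the gene of CD45, passed the bead selection and carried Tm4sf1 and Sox9 (367 LC427 and 182 vehicle cells, with median totals of 10940.0 and 21176 UMIs). They had markers of fibroblasts and of the tumour list, while Krt18, Krt19 and Cldn4 were not detected. The class is named here by Tm4sf1 and Sox9, and fibroblast was the marker list with the highest score in both of its clusters. The 3 members with signal were lower in LC427 by similar folds. Ifitm1 was at 572 CPM (interval 550.1 to 594) in LC427 and 1020.0 CPM (interval 989 to 1052) in vehicle, a ratio of 0.561 (interval 0.534 to 0.589). Ifitm2 was at 235 CPM in LC427 and 468 CPM in vehicle, a ratio of 0.501 (interval 0.464 to 0.540), and Ifitm3 at 586 CPM in LC427 and 1072 CPM in vehicle, a ratio of 0.547 (interval 0.521 to 0.574). Of measured genes in these cells, 10.4% were at least 1.5-fold lower and 8.64% at least 1.5-fold higher. The class was made of 2 clusters and the 3 genes were lower in both, with ratios of 0.572, 0.512 and 0.622 in cells led by Dcn and Ccn1 and of 0.550, 0.492 and 0.488 in cells led by Tubb3 and H1fx, beside 10.8% and 12.7% of genes lower. Under 14 alternatives for the processing all 3 stayed past 1.5-fold lower, at 0.506 to 0.599 for Ifitm1, 0.452 to 0.517 for Ifitm2 and 0.494 to 0.591 for Ifitm3. The 13 monocyte or macrophage markers summed to 139.9 CPM in LC427 and 433 CPM in vehicle, none of them at 0, and their part in these values was not tested. Ifitm6 was at or near its floor, with 5 UMIs in LC427 and 2 in vehicle.

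Barcodes with both T cell and myeloid genes (357 LC427 and 136 vehicle) were kept apart from the classes above. In them Ifitm1 was at 704 CPM in LC427 and 695 CPM in vehicle, Ifitm2 at 346 CPM in LC427 and 666 CPM in vehicle (ratio 0.520) and Ifitm3 at 937 CPM in LC427 and 1301 CPM in vehicle (ratio 0.720), where 11.1% of measured genes were at least 1.5-fold lower. A fibroblast-like cluster of 12 LC427 and 30 vehicle cells had Ifitm1 at 66.4 CPM in LC427 and 88.5 CPM in vehicle, Ifitm2 at 438 CPM in LC427 and 867 CPM in vehicle and Ifitm3 at 1712 CPM in LC427 and 2898 CPM in vehicle, the last above the conventional DC-like level in both libraries, with overlapping intervals in LC427. With these groups, the unnamed Retnla Ear2 cluster and the Igkc Ctsk Siglech cluster left aside and the classes ordered by Ifitm1 level, LC427 classes ran from conventional DC-like cells through the mature regulatory DC-like and Ptprc-low cells, whose intervals overlapped (522 to 666 and 550.1 to 594 CPM), to CD8 T-like, monocyte/macrophage-like, NK-like and other T-like cells. The intervals of NK-like and other T-like cells overlapped in LC427. In vehicle the NK-like cells came next after conventional DC-like cells, followed by Ptprc-low and CD8 T-like cells, and the intervals of mature regulatory DC-like and other T-like cells overlapped ahead of monocyte/macrophage-like cells. In summed UMIs the place of NK-like cells is thus where the 2 orders differ most, but a few vehicle cells carried most of that signal. With each cell weighted equally, vehicle NK-like cells were at 364 CPM, under Ptprc-low cells at 948 CPM and CD8 T-like cells at 799 CPM. In that weighting their place did not stand out. Among the same classes Ifitm3 was highest in conventional DC-like cells in both libraries and lowest in NK-like and CD8 T-like cells, whose intervals overlapped in both. The interval of other T-like cells overlapped that of NK-like cells in vehicle. Its order between these ends was monocyte/macrophage-like, mature regulatory DC-like and Ptprc-low cells in LC427, each overlapping the next, and Ptprc-low, monocyte/macrophage-like and mature regulatory DC-like cells in vehicle. Ifitm2 was likewise highest in conventional DC-like cells in both libraries, and lowest in CD8 T-like and other T-like cells, with the NK-like interval overlapping theirs in LC427.

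**Figure D4:**
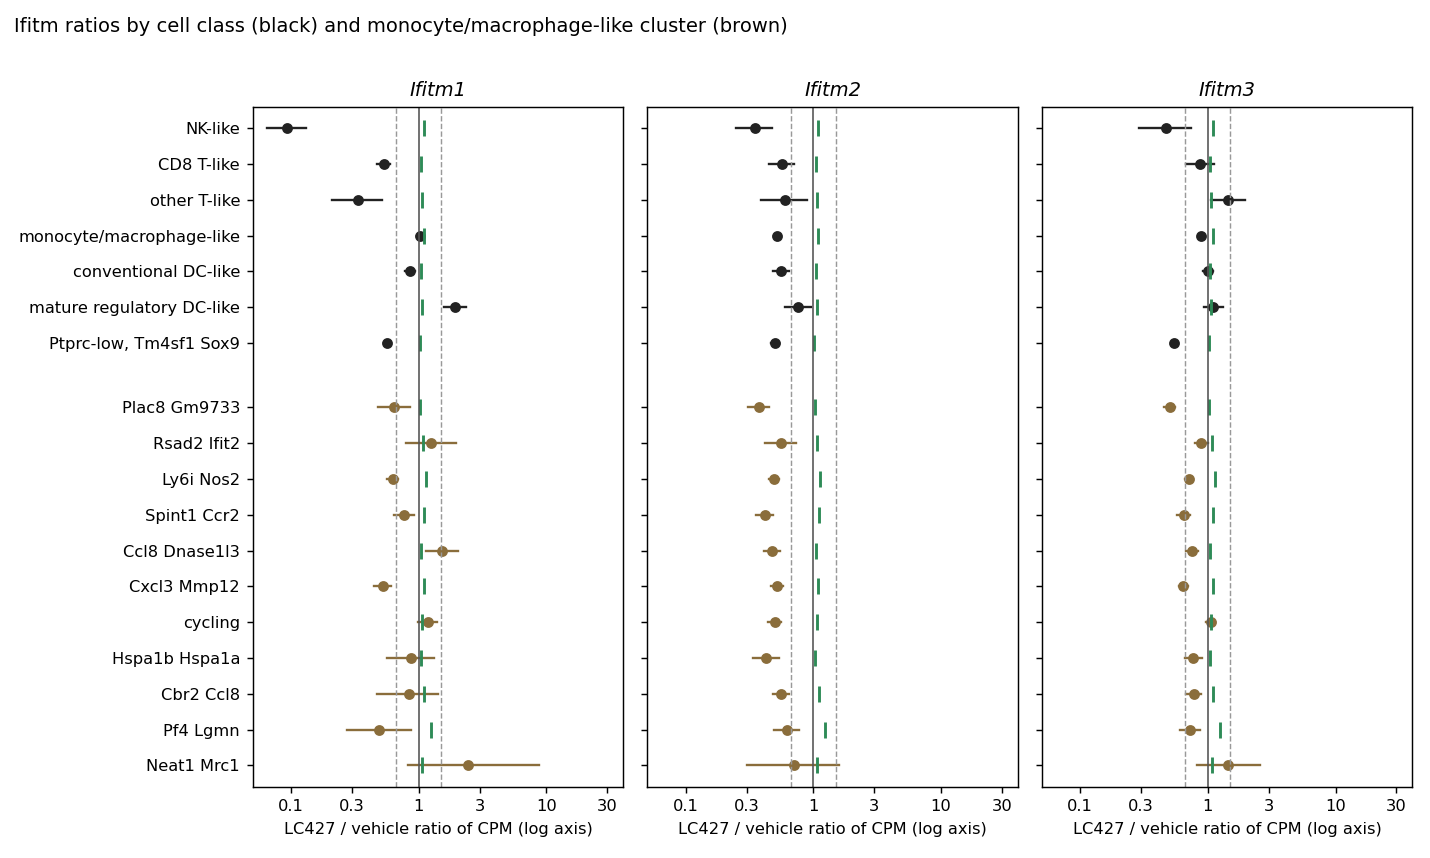
Ratio of the LC427 level to the vehicle level of Ifitm1, Ifitm2 and Ifitm3, 1 panel a gene, on a log axis, with black points for classes, brown points for monocyte/macrophage-like clusters and bars for conditional binomial 95% intervals. The solid line is a ratio of 1, dashed lines are 1.5-fold in either direction and green ticks the median ratio of all genes. Ifitm2 points lie left of 1 in every class and cluster, while Ifitm1 points run from far left in NK-like cells to right of 1.5 in mature regulatory DC-like cells.

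The members did not follow each other equally across cell groups. They were compared over 32 profiles with at least 100 cells, each from 1 library. A profile was a class or, for monocyte/macrophage-like cells, a cluster in place of the class, so profiles share no cells but many share a library. The Pearson correlation of log2(CPM + 1) was 0.733 between Ifitm2 and Ifitm3 and 0.702 between Ifitm3 and Ifitm6. It was 0.296 between Ifitm1 and Ifitm2 and 0.246 between Ifitm1 and Ifitm3. Among 5719 genes, the 3 whose profiles were most like that of Ifitm3 were Oasl2 at 0.906, Gbp2 at 0.897 and Isg15 at 0.860, all of them interferon-induced genes. Those most like Ifitm2 were Slc35b2 at 0.839, Sys1 at 0.808 and Ost4 at 0.778. Those most like Ifitm1 were 4930523C07Rik at 0.757, Bri3bp at 0.738 and Zfp593 at 0.716, and those most like Ifitm6 were Coq10b at 0.848, Gm9733 at 0.826 and Dmkn at 0.782. Spearman's rho gave the same 3 genes for Ifitm2, put Srebf2 first for Ifitm1 (0.736) and Cnn3 first for Ifitm3 (0.897), and named other genes for Ifitm6, namely Tbc1d8 at 0.797, Pim1 at 0.784 and Snx20 at 0.783.

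Within single cells of the Plac8 cluster, thinned to 1000 UMIs, Ifitm6 was seen together with Ifitm3. Of LC427 cells with an Ifitm6 UMI, 15 of 16 also had an Ifitm3 UMI, as did 31 of 31 in vehicle. Over all Plac8 cells an Ifitm3 UMI was present in 166 of 236 in LC427 and 129 of 155 in vehicle. In vehicle NK-like cells Ifitm1 and Ifitm2 were found in the same cell in 5.51% of cells, 20 of the 49 with an Ifitm1 UMI and of the 51 with an Ifitm2 UMI. In LC427 NK-like cells both were seen in 3 cells, of 13 with an Ifitm1 UMI and 9 with an Ifitm2 UMI. At this thinned depth a missing UMI is not an absent transcript.

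The wider interferon pathway was read from lists of ligands, receptors and response genes. Classes with under 100 cells in a library were left out of this. Among ligands, Ifng, the gene of interferon gamma, was at 296 CPM in LC427 and 458 CPM in vehicle in CD8 T-like cells, a ratio of 0.645 (interval 0.560 to 0.742). In other T-like cells it was at 367 CPM in LC427 and 88.2 CPM in vehicle, a ratio of 4.17 (interval 2.92 to 6.02). Among the 10 receptor and signalling genes, 0 were past 1.5-fold higher and 0 past 1.5-fold lower in monocyte/macrophage-like cells. Of all measured genes there, 10.9% were higher and 6.19% lower.

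Response genes did not go with the Ifitm genes in every class. In monocyte/macrophage-like cells, 2 of 23 type I response genes were past 1.5-fold higher and 0 lower. Their median log2 ratio was 0.25, against 0.13 over all genes. Of interferon gamma response genes 6 of 22 were higher and 0 lower, where 10.9% of all measured genes were higher, such as the guanylate-binding protein gene Gbp2 at 352 CPM in LC427 and 221 CPM in vehicle and Ciita, the regulator of MHC class II genes, at 41.0 CPM in LC427 and 22.7 CPM in vehicle. Over the whole class Ifitm2 and Ifitm6 were past 1.5-fold lower in LC427, and no measured gene of these 2 response lists was. The lists were not read in single clusters, and without the Plac8 cluster the class ratio of Ifitm6 was 0.923. In Ptprc-low cells the lists and the Ifitm genes lay on the same side: 15 of 23 type I response genes and 15 of 21 interferon gamma response genes were past 1.5-fold lower, beside 10.4% of all measured genes, with median log2 ratios of -0.72 and -0.80 against 0.02 over all genes. Examples are Bst2, which tethers budding virus, at 241 CPM in LC427 and 423 CPM in vehicle, and the immunoproteasome gene Psmb8 at 134 CPM in LC427 and 329 CPM in vehicle.

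In NK-like cells 6 of 11 type I response genes lay past 1.5-fold lower in LC427 and 1 past it higher, beside 16.2% and 22.6% of all measured genes. With a minimum of 100 UMIs, 2 of these genes were left, 1 of them past 1.5-fold lower. Their median log2 ratio was -0.73, against 0.12 over all genes. Isg20, an interferon-induced exonuclease, was at 6.43 CPM in LC427 and 40.3 CPM in vehicle from 2 and 63 UMIs, a ratio of 0.160 (interval 0.0189 to 0.602), and the surface antigen gene Ly6a at 61.1 CPM in LC427 and 119 CPM in vehicle. Of the interferon gamma list, 4 of 17 were higher and 2 lower, shares near those of all genes. In CD8 T-like cells 2 of 10 type I response genes were lower and 1 higher, beside 10.3% and 13.7% of all genes, and with a minimum of 100 UMIs 0 of 3 were lower. In mature regulatory DC-like cells, where Ifitm1 was higher in LC427, 4 of 13 type I response genes were higher and 0 lower, among them Ifi27l2a at 841 CPM in LC427 and 527 CPM in vehicle, beside 18% of all genes higher and 10.4% lower. In the same cells 5 of 19 interferon gamma response genes were higher and 1 lower, the chemokine gene Cxcl9 among the higher at 305 CPM in LC427 and 149 CPM in vehicle. The median log2 ratios of these lists were 0.20 and 0.24, against 0.09 over all genes, and with a minimum of 100 UMIs 1 of 4 and 2 of 9 were higher. Of the 9 listed partners and modifiers of IFITM proteins, 0 were past 1.5-fold in either direction in monocyte/macrophage-like cells. In that class 6.19% of all measured genes were lower and 10.9% higher. In Ptprc-low cells 1 of the 9 was past 1.5-fold lower and 1 higher, shares near the 10.4% and 8.64% of all measured genes. The lower one, Cd81, the tetraspanin found with IFITM1, was at 179 CPM in LC427 and 334 CPM in vehicle, a ratio of 0.536 (interval 0.491 to 0.585). The higher one, Zmpste24, a membrane protease that binds IFITM proteins, was at 35.9 CPM in LC427 and 22.6 CPM in vehicle, a ratio of 1.59 (interval 1.22 to 2.08).

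The authors' deposited table of cluster means, made separately for each library with 11 LC427 and 13 vehicle clusters, gives a mean count per cluster. In it Ifitm1 was highest in LC427 in their cluster 7, at a mean count of 1.62, which also had the highest Ccr7 (2.43) and Ccl17 (2.35) of that library. In vehicle the authors' deposited table has Ifitm1 highest in their cluster 7, at 3.09, the cluster with the highest mean of the granzyme gene Gzmf (23.6). Ncr1 was highest in vehicle cluster 5 (0.237, with 0.236 in cluster 7), where Ifitm1 was at 1.02. The vehicle cluster with the highest Ccr7, cluster 12, ranked 4 of 13 for Ifitm1, at 1.48. The LC427 cluster with the highest Gzmf, cluster 3, ranked 8 of 11 for Ifitm1, at 0.427. Ifitm6 was highest in their cluster 2 in LC427 (0.0690) and in their cluster 9 in vehicle (0.196) in the authors' deposited table. Cluster numbers are not shared between the tables, whose values were scaled separately, so the means of the libraries are not compared here.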

How the data were processed

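Cells of MC38 tumours were measured in 2 droplet libraries, 1 LC427 and 1 vehicle, grouped by the treatment label. The members and gene lists were chosen with earlier results of these data known. Cell Ranger 3.0.1, Seurat 3 and GRCm38 (mm10) are named in the submitters' processing notes. The headers of the matrices name Cell Ranger 4, and which version made the counts is not settled. The authors deposited unfiltered UMI counts for 32285 genes. The authors also deposited tables with a mean count signal, a log2 fold change and an adjusted p-value per gene and cluster, and the means alone were used.

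A barcode was called a cell from 1000 UMIs and 400 genes up, if mitochondrial genes held no more than 10% of its UMIs. Scrublet called 0 LC427 and 2 vehicle doublets and was taken not to have worked, so the highest scores were left out at 0.8% per 1000 cells (320 and 220 barcodes). Both libraries were clustered together (scanpy 1.11.5, 2000 variable genes without the Ifitm genes, 30 components, 20 neighbours, leidenalg 0.10.2 at resolution 1). A cluster took the name of the marker list with the highest score among those with at least 3 markers in at least 10% of its cells, a rule written after the data were seen. Where that list was fibroblast or tumour and at least 3 tumour markers were detected, the name was Ptprc-low Tm4sf1 Sox9 instead. Where it was T or NK and at least 7 monocyte or macrophage markers were detected, the cluster was kept apart as mixed T and myeloid. A cluster stayed unnamed where another class had more markers than its own among the 10 leading genes.

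The UMIs of each gene were added up over the cells of a class and divided by the class total. Intervals, Poisson for levels, conditional binomial for ratios, cover counting error only. With 1 library per group no test across samples could be made. Genes of the lists were named where past 1.5-fold with at least 20 UMIs, up to 4 a list in the order of the bound nearest to 1, and for each member the 3 genes of most similar profile. Settings varied for comparison are named in the closing section. The ratio calculation was tested on simulated data. Protein sequences were not used here.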

Additional observations from a re-analysis of the deposited data

Results flagged for a closer look

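The Ifitm1 ratio of mature regulatory DC-like cells stood on the other side of 1 from the ratios of 4 other classes, all 5 being past 1.5-fold. It was 1.93 in mature regulatory DC-like cells, against 0.0935 in NK-like cells, 0.531 in CD8 T-like cells, 0.336 in other T-like cells and 0.561 in Ptprc-low Tm4sf1 Sox9 cells. The difference between classes was not tested, as each group is 1 library. In mature regulatory DC-like cells Ifitm1 was at 591 CPM in LC427 and 305 CPM in vehicle, and markers of T cells, conventional DCs and macrophages summed to higher values in LC427 there too. Markers of neutrophils, B cells, mast cells or basophils and NK cells, and those of the class itself (7738 CPM in LC427 and 8825 CPM in vehicle), summed to lower values in LC427. The part of these lists in the Ifitm1 value was not tested.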

How the results depend on the processing

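Ratios of the members were recomputed under 13 other settings, and under 6 more that were chosen after seeing the data: macrophage clusters weighted equally, the class without the Plac8 cluster, NK-like cells without granzyme UMIs (all of them, or less the 1 or the 3 vehicle cells richest in Ifitm1), and each cell weighted equally. No paired analysis was possible because each group is 1 library. Ifitm2 in monocyte/macrophage-like cells stayed past 1.5-fold lower under 16 of 16 alternatives, and Ifitm1 in NK-like cells under 16 of 17. Ifitm1 in mature regulatory DC-like cells stayed past 1.5-fold higher under 14 of 14, at 1.73 to 2.91. Where values shifted, the cause was not tested. Raising the minimum for listed genes to 100 UMIs shifted 34 counts of list genes by over 1.5 times and left 64 within it.

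Thinning each cell to 1000 UMIs gave ratios of 0.309 for Ifitm1 and 0.773 for Ifitm3 in NK-like cells, 0.425 and 0.504 in CD8 T-like cells, and 0.467 for Ifitm2, 0.860 for Ifitm3 and 0.431 for Ifitm6 in monocyte/macrophage-like cells. Equal weight for each cell gave 0.307 and 0.738 in NK-like cells for the same pair, 0.460 and 0.594 in CD8 T-like cells, 0.492 for Ifitm2 and 0.830 for Ifitm3 in monocyte/macrophage-like cells. The same weighting turned Ifitm6 in mature regulatory DC-like cells to 1.11, where the summed ratio was 0.403 from 2 LC427 and 6 vehicle UMIs. The marker gate gave 0.725 for Ifitm1 and 1.64 for Ifitm3 in CD8 T-like cells, and keeping likely doublets gave 0.595 for Ifitm3. NK-like cells without granzyme UMIs gave 0.263 for Ifitm1, 0.640 less the richest vehicle cell and 1.14 less the 3 richest, the exception in the count above. A minimum of 2000 UMIs gave 0.753 for Ifitm3 in NK-like cells and 0.540 for Ifitm2 in monocyte/macrophage-like cells.

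In monocyte/macrophage-like cells, division by the median ratio of all genes gave 0.936 for Ifitm1, 0.471 for Ifitm2 and 0.813 for Ifitm3. The median over the 11 clusters gave 0.838 for Ifitm1 and 0.751 for Ifitm3. For Ifitm6 only 5 clusters had a ratio, and their median of 0.334 is the ratio of the Plac8 cluster itself. Without the Plac8 cluster the class gave 0.922 for Ifitm3 and 0.923 for Ifitm6. The 0 Ifitm6 UMIs in NK-like cells allow a level of up to 9.65 CPM in LC427 and 1.92 CPM in vehicle.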
